A study of Brassica rapa subsp. pekinensis with 2 samples.

Results

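In 373 genes of Chinese cabbage (Brassica rapa subsp. pekinensis), the isoform that made up most of the gene's RNA in anthers was not the isoform that made up most of it in vegetative organs. They were found among 35435 genes that had a reference transcript or an assembled isoform sharing a splice junction with it (class j). Of these genes, 7917 had both kinds, and 2295 also had a summed FPKM of at least 5 in both libraries. FPKM scales the sequenced fragments to the length of the transcript and to the depth of the library. Within these 2295 eligible genes, the isoform with the highest FPKM had to differ between the libraries, and each had to hold over 50% of the gene's FPKM in its own library. The 373 genes were 16.3% of the eligible genes. The choice itself used the isoform FPKM of both libraries, so their shares are given as a description and not as a finding. The isoform that led in anthers is called the Ant-dominant isoform, and the isoform that led in vegetative organs the Mix-dominant isoform.

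Total RNA, depleted of ribosomal RNA, came from the doubled haploid line 'FT'. The Ant library held pooled anthers of different developmental stages, and the Mix library held root, stem and leaf of whole seedlings with 4 true leaves. For both libraries the sample labels give seeds vernalized for 20 days at 4 °C, whereas the methods of the study state vernalization only for the plants that gave anthers, so organ cannot be told apart from plant age or from vernalization. Each group held 1 library, there were no replicates, and no difference could be tested. In such bulk samples, fewer cells that use an isoform and less of that isoform per cell cannot be told apart.

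A plant gene can give several transcripts when introns are kept or removed, when other splice sites are used, or when transcription starts or ends at another place. Kept introns are the commonest form of alternative splicing in plants, and a changed isoform can alter the protein, its place in the cell, or the stability of the RNA without a change in the level of the gene. Anthers, which hold the developing pollen and the tapetum that feeds it, are known for transcripts that differ from those of leaves and roots.

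The labels were checked on marker genes. All 24 reference transcripts of chlorophyll a-b binding proteins, the light-harvesting proteins of green tissue, were higher in Mix, with summed FPKM of 21.3 in Ant and 10374 in Mix. All 6 genes that the study treats as predominant in anthers were higher in Ant, with summed FPKM of 14430 in Ant and 0.0886 in Mix, although the study chose them on these libraries. The linear table held 216371346 estimated counts in Ant and 190816341 in Mix. A single window of chromosome A06 took 2.07% of the counts in Ant and 56.2% of the counts in Mix. No eligible gene lay in it. It lowers the FPKM of the other genes in Mix, so levels are compared between libraries with care, whereas the share of an isoform within its gene does not depend on the scaling. The 373 genes had at least 438 estimated counts in Ant and at least 485 in Mix, with medians of 6455 in Ant and 3580 in Mix. In both libraries the summed estimated counts exceed the valid reads that the study reports. Estimated counts are therefore not numbers of reads, and they overstate the depth.

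The shift in share was large in many of the genes. The switch size was taken as the mean of 2 differences in percentage points, the share of the Ant-dominant isoform in Ant less that in Mix, and the share of the Mix-dominant isoform in Mix less that in Ant. It ranged from 4.65 to 99.7 points, with a median of 53.2 (95% order-statistic interval over genes 49.7 to 55.1). It reached 50 points in 205 genes, 75 points in 66 and 90 points in 16, and stayed under 10 points in 13. In 87 genes both dominant isoforms held over 75% in their own library. The least shift was that of BraA09g046580.3C, a glycosyltransferase family 64 protein, whose reference isoform held 53.2% in Ant and 48.5% in Mix. Such genes crossed the 50% line with little change.

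**Figure D1:**
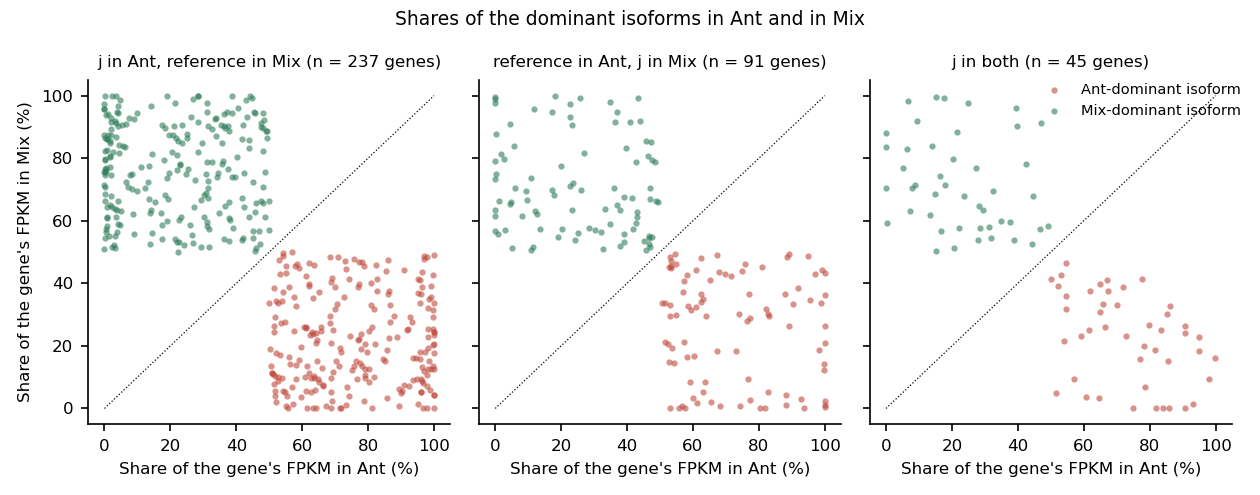
Share of the gene's FPKM held by the Ant-dominant isoform (red) and the Mix-dominant isoform (green), with the share in Ant on the x axis and in Mix on the y axis (%), 1 point per gene and isoform. The panels hold 237, 91 and 45 genes by the class of the dominant isoforms. The rule keeps each isoform over 50% in its own library, so no red point is under 50% in Ant and no green point is under 50% in Mix.

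The genes nearest the 50% line were BraA10g024030.3C, whose Ant-dominant isoform held 50.1% in Ant, BraA07g005280.3C, whose Mix-dominant isoform held 50.1% in Mix, and BraA03g024520.3C, whose Ant-dominant isoform held 50.2% in Ant. Just outside were BraA03g015180.3C, the splicing factor RS41, with 49.997% in Ant, BraA03g032880.3C, the ribosomal protein L29-2, with 49.7% in Mix, and BraA01g002970.3C with 49.1% in Mix. On the FPKM minimum, BraA09g052980.3C (protein phosphatase 2C 22) lay just inside with a summed FPKM of 5.01 in Mix, and BraA07g038180.3C (glycine-rich RNA-binding protein 5) just outside with 4.99 in Mix. If no minimum share was set, the dominant isoform differed in 441 eligible genes, or 19.2%.

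The switches fell into 3 kinds. In 237 genes (63.5% of the 373, and 10.3% of the eligible genes) a class j isoform led in Ant and the reference transcript led in Mix. In 91 genes (24.4% of the 373, and 3.97% of the eligible genes) the reference transcript led in Ant and a class j isoform led in Mix. In the other 45 genes 2 different class j isoforms led, and in 8 of these the isoforms did not overlap each other. Thus, of the 328 genes that switched between the reference and a class j isoform, 237 or 72.3% had the class j isoform in Ant (95% Wilson interval over genes 67.2 to 76.8%). The rule fixes no direction, but these genes were picked on the same shares, so the number is descriptive. Over all 2295 eligible genes, which include the 373, the class j share of FPKM was higher in Ant in 1397 (60.9%). A class j isoform led in 63.3% of them in Ant and in 56.9% in Mix. Of the 1922 eligible genes not chosen, however, class j led in both libraries in 1153 and the reference in both in 736. The difference in leading isoform over the 2295 thus comes mostly from the 237 and 91 genes and is not further support.

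The same direction was seen in genes of any level. The class j isoform led in Ant in 160 of 222 genes (72.1%) whose summed FPKM was higher in Ant, and in 77 of 106 genes (72.6%) whose summed FPKM was higher in Mix. The FPKM was also rescaled to the library totals implied by FPKM, length and estimated counts, less the counts in the A06 window. These implied totals, 231996227 in Ant and 230670651 in Mix before the window was left out, were larger than the summed estimated counts. After the rescaling, the shares above became 89 of 128 genes (69.5%) higher in Ant and 148 of 200 genes (74.0%) higher in Mix. By the summed FPKM in Mix, the share was 68.6% in genes at 5 to 10, 78.9% at 10 to 20 and 71.6% at 20 and above. The class j isoforms of a gene together held a median of 72.4% of its FPKM in Ant and 38.8% in Mix in the 373 genes, and of 88.9% in Ant and 84.3% in Mix in the 1922 eligible genes that were not chosen. The 373 were picked for a change of the leading isoform and the 1922 were left out by the same rule. The wider gap in the 373 thus follows from the choice and is not further support. Among these 1922 the reference led in both libraries in 736. Class j led in both in 1153, by the same isoform or by different ones. In 68 of the 1922 the leading isoform differed without both holding over 50%, and these groups overlap in part.

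The dominant isoforms differed in length. The Ant-dominant isoform was longer in 257 of the 373 genes (68.9%, 95% Wilson interval 64.0 to 73.4%), with a median difference of 225 nt (182 to 268 nt). This followed the class of the isoforms. Where a class j isoform led in Ant and the reference in Mix, the Ant-dominant isoform was longer in 217 of 237 genes, by a median of 344 nt. Where the reference led in Ant and a class j isoform in Mix, it was longer in 17 of 91, and the median difference was -219 nt. Where class j isoforms led in both, it was longer in 23 of 45, with a median difference of 4 nt (-94 to 111 nt). The reference models hold coding sequence only, as all 34213 had a length that was a multiple of 3, against 36.9% of the class j isoforms. In the 328 switches between a reference and a class j isoform, lengths and ends were thus compared between models that can differ in whether untranslated sequence is counted, although the ends were identical in 31 of them. How far this sets the lengths was not tested. How far it sets the split of FPKM between such models, and so the shares, the switch size and the direction, was not tested either. The 45 genes with class j isoforms in both set assembled isoforms against each other. In 8 of these 45 the Ant-dominant and Mix-dominant isoforms did not overlap but occupied separate intervals, so that their lengths and ends do not compare forms of the same stretch. In the other 37 the Ant-dominant isoform was longer in 17, with a median difference of -12 nt (-129 to 100 nt). None of the 328 had dominant isoforms that did not overlap.

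**Figure D2:**
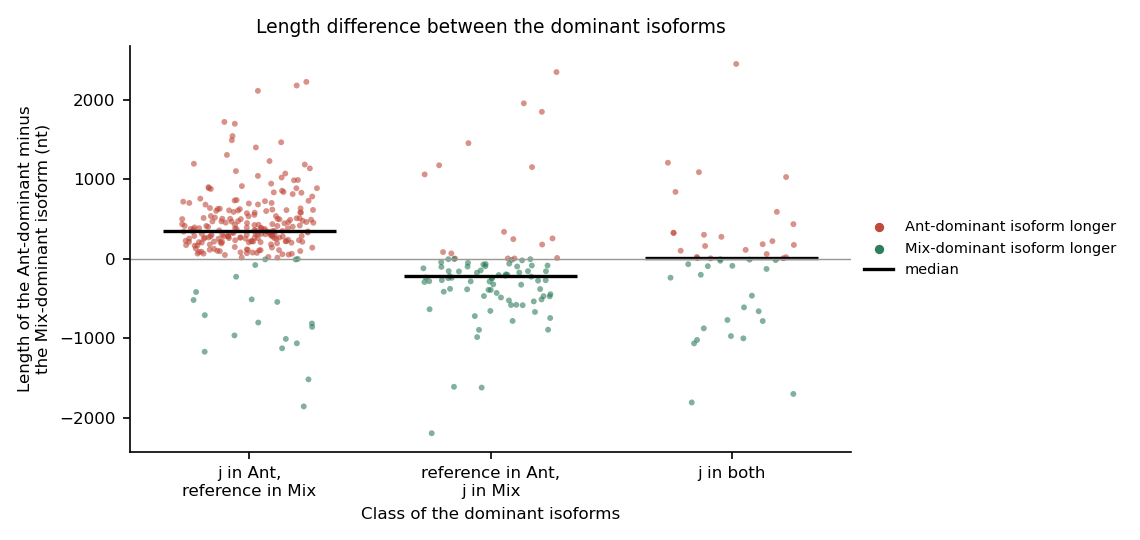
Length of the Ant-dominant isoform minus that of the Mix-dominant isoform (nt, y axis) for each of the 373 genes, by the class of the dominant isoforms (x axis). Black lines are medians, which lay at 344, -219 and 4 nt from left to right.

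In most genes the isoforms differed at an end. With a tolerance of 50 nt, only the 5′ end differed in 111 genes, only the 3′ end in 105 and both ends in 104. Both ends agreed in 53 genes (14.2%), of which 32 differed in exon number. Among the 237 genes with a class j isoform in Ant and the reference in Mix, the Ant-dominant isoform reached further upstream in 115 and further downstream in 142. Among the 91 genes with the opposite arrangement, the Mix-dominant isoform reached further upstream in 51 and further downstream in 30. In the 45 genes with class j isoforms in both, the Ant-dominant isoform reached further upstream in 12 and the Mix-dominant isoform in 7, whereas the Ant-dominant isoform reached further downstream in 8 and the Mix-dominant isoform in 13. Without the 8 genes whose isoforms did not overlap, these counts were 7 and 4 upstream and 5 and 8 downstream. Exon number was equal in 62 of the 373 genes, differed by 1 in 231, and differed by more in 80. The widest difference in length was 2449 nt in BraA02g013320.3C, a gene with no named function, whose Ant-dominant isoform had 3889 nt and Mix-dominant isoform 1440 nt, but these were 2 of the isoforms that did not overlap. Among genes whose isoforms overlapped it was 2347 nt in BraA06g035890.3C, also with no named function, where the reference of 2661 nt led in Ant and a class j isoform of 314 nt led in Mix. The smallest was 2 nt in BraA01g007230.3C, the alpha subunit of the signal recognition particle receptor, yet its isoforms had 11 exons in Ant and 7 in Mix.

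In 41 genes the dominant isoforms had identical ends, so that they differed inside the transcript only. In 25 of them the longer isoform had fewer exons, the arrangement that a kept intron gives, although the sequence between the exons was not read here. The longer isoform was the Ant-dominant one in 16 of these 25 and the Mix-dominant one in 9. The difference had a median of 108 nt (66 to 2195 nt) and was a multiple of 3, which keeps the reading frame when it lies in coding sequence, in 14. In 15 genes the exon number was equal and the length differed by a median of 6 nt (3 to 738 nt), in 11 by a multiple of 3, and the longer isoform was Ant-dominant in 7. In the remaining gene, BraA09g015710.3C, which encodes the vacuolar acid beta-fructofuranosidase 3 that splits sucrose, the Ant-dominant isoform was 9 nt longer with 7 exons against 6. That isoform had an FPKM of 76.2 in Ant and was listed at 0 in Mix, which allows up to 0.218% of the gene there, whereas the other had 8.46 in Ant and 5.56 in Mix.

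**Figure D3:**
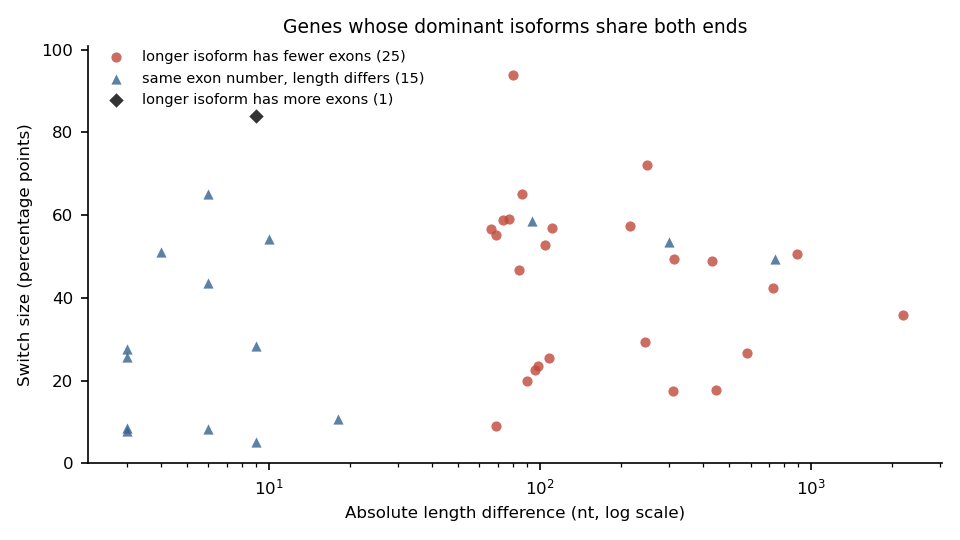
Absolute length difference between the dominant isoforms (nt, log axis) against switch size (percentage points) for the 41 genes whose dominant isoforms have identical ends. Circles are 25 genes whose longer isoform has fewer exons, triangles 15 genes with equal exon number, and the diamond 1 gene whose longer isoform has more exons. The triangles lie mostly at a few nucleotides and the circles at 66 nt and above.

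Pyruvate dehydrogenase, which feeds the mitochondrial citric acid cycle, gave the largest of the switches with identical ends, 94.0 points in BraA02g016100.3C. In that gene (A02, 8555940 to 8558632, minus strand, genome v3.0), for the E1 subunit beta-1, a class j isoform of 1181 nt and 12 exons had an FPKM of 284 in Ant and 0.228 in Mix. The reference of 1101 nt and 13 exons had 14.1 in Ant and 17.4 in Mix. Thus the class j isoform held 95.3% of the gene in Ant and 1.29% in Mix. Another gene of the same name, BraA03g015810.3C, had the same arrangement with a switch size of 46.8 points, which 20 of the 41 genes exceeded: its class j isoform of 1188 nt and 12 exons held 90.9% in Ant and 44.1% in Mix, against a reference of 1104 nt and 13 exons. The extra length was 80 nt in BraA02g016100.3C and 84 nt in BraA03g015810.3C. A gene for the chloroplastic E1 subunit beta-2 (BraA08g023520.3C) was also among the 41, with a switch size of 27.7 points between isoforms of 1209 and 1212 nt, and its class j isoform held 65.1% in Ant and 37.4% in Mix. Other genes of this kind were the small GTPase RABH1b-like (BraA05g004490.3C), with a 249 nt longer isoform at 73.1% in Ant and 0.955% in Mix, and the auxin receptor AUXIN SIGNALING F-BOX 2 (BraA02g037140.3C), with a 77 nt longer isoform at 66.2% in Ant and 7.06% in Mix. Response regulator ARR1 (BraA05g030420.3C), which acts in cytokinin signalling, had a 312 nt longer isoform at 54.7% in Ant and 5.37% in Mix. The longer isoform led in Mix instead in the phospholipid-transporting ATPase 3 (BraA01g027800.3C), where it was 2195 nt longer with 17 exons against 27, and held 19.0% in Ant and 54.9% in Mix.

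The 24 genes with the largest switch size were described singly. A class j isoform led in Ant and the reference in Mix in 17 of them, the reverse held in 5, and class j isoforms led in both in 2. The Ant-dominant isoform was the longer in 19.

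**Figure D4:**
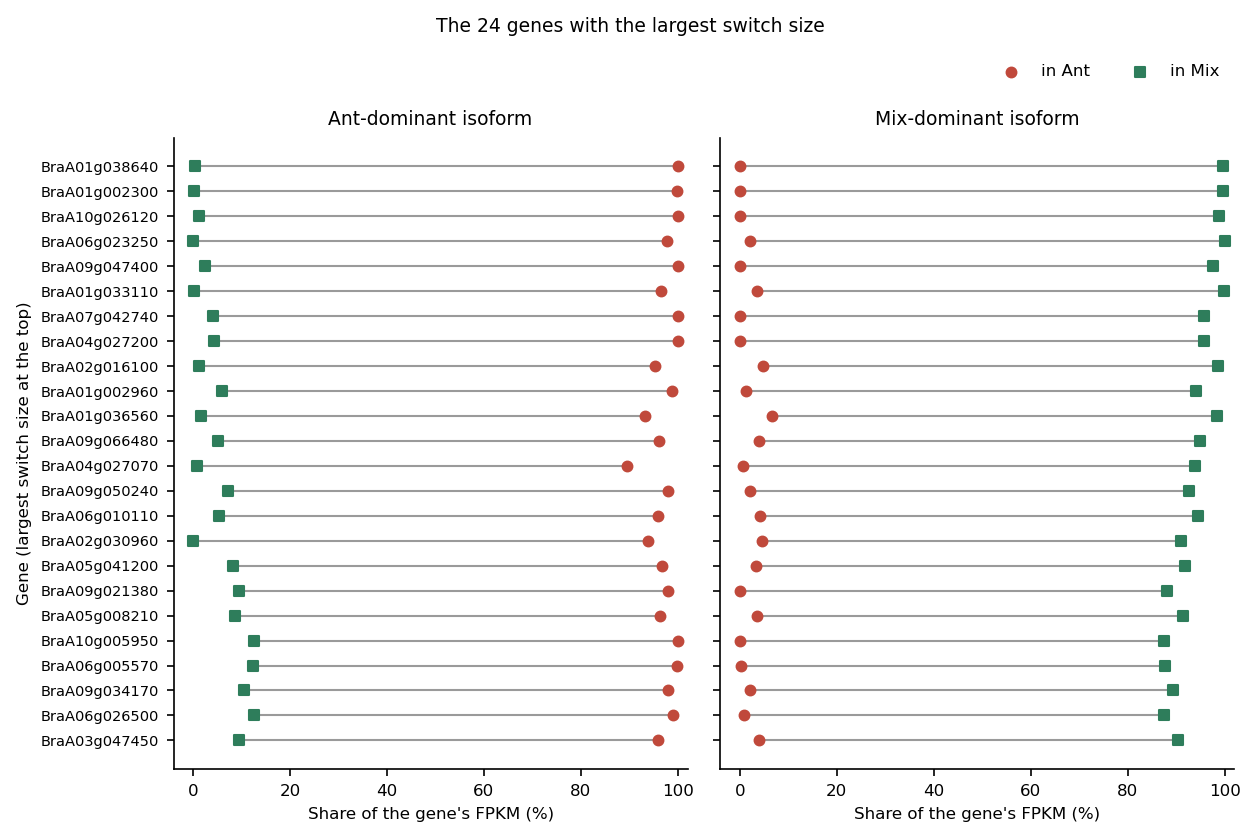
Share of the gene's FPKM (%, x axis) held by the Ant-dominant isoform (left panel) and the Mix-dominant isoform (right panel) in Ant (red circles) and in Mix (green squares) for the 24 genes of largest switch size. The genes run downward by size, and the topmost, BraA01g038640.3C, has a switch size of 99.7 points.

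They are given by described role, and these roles were not tested as groups. The largest switch was that of BraA01g038640.3C (A01, 26175263 to 26177432, plus strand), a chloroplastic phosphoglycerate kinase 1, an enzyme of the Calvin cycle. Its reference of 1521 nt had an FPKM of 11.0 in Ant and 0.485 in Mix, whereas a class j isoform of 1343 nt was listed at 0 in Ant and had 158 in Mix. The zero in Ant allows up to 0.175% of the gene. The level of the whole gene also differed, with a summed FPKM of 11.0 in Ant and 158 in Mix. 6-Phosphogluconate dehydrogenase (BraA05g041200.3C), of the pentose phosphate pathway, had a class j isoform at 96.7% in Ant and 8.17% in Mix that began 500 nt upstream of the reference. L-lactate dehydrogenase B-like (BraA03g047450.3C), of anaerobic metabolism, had an FPKM of 25.0 in Ant and 1.33 in Mix for its class j isoform, and of 1.04 in Ant and 12.6 in Mix for its reference. CTP synthase (BraA09g034170.3C), which makes the nucleotide CTP, had a class j isoform of 2824 nt at 97.9% in Ant and 10.6% in Mix, and a reference of 1803 nt at 2.11% in Ant and 89.4% in Mix. Dihydropyrimidinase (BraA10g026120.3C), which breaks down pyrimidines, went the other way: the reference had 5.03 in Ant and 0.112 in Mix, and a class j isoform was listed at 0 in Ant and had 9.57 in Mix.

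The homolog 6 of CCR4-associated factor 1 (BraA07g042740.3C), a deadenylase subunit that shortens the poly(A) tail, had a class j isoform at FPKM 19.5 in Ant and 1.05 in Mix. Its reference was listed at 0 in Ant, which allows up to 0.15% of the gene, and had 24.2 in Mix. The summed FPKM was 19.5 in Ant and 25.2 in Mix, a log2 ratio of -0.35 as deposited and of -1.20 with library totals without the A06 window, with 1 added to each FPKM. An mRNA-decapping enzyme-like protein (BraA06g005570.3C), of a family that removes the cap from mRNA before decay, changed in the opposite sense: the reference held 99.8% in Ant and 12.3% in Mix, and the class j isoform, which ended 446 nt further downstream, held 0.246% in Ant and 87.7% in Mix. SUVR2 (BraA02g030960.3C), an inactive histone methyltransferase that acts in RNA-directed silencing in Arabidopsis, had its reference of 1878 nt at FPKM 7.58 in Ant, while 1 estimated count in Mix, under the floor of 6, allows up to 0.201% of the gene there, and a class j isoform of 2349 nt at 0.374 in Ant and 6.24 in Mix.

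A calmodulin-like gene (BraA06g023250.3C, A06, 15755872 to 15756671, minus strand), a calcium sensor by its description, had a class j isoform of 664 nt, whose FPKM was 183 in Ant while Mix listed it at 0, which allows up to 0.211% there. Its reference of 450 nt had 4.10 in Ant and 18.6 in Mix. A serine/threonine-protein kinase (BraA06g010110.3C) had a class j isoform at 95.9% in Ant and 5.41% in Mix that began 2814 nt upstream and held a whole other reference gene in its span, so the genes may share reads. The cyclin-dependent kinase F-4-like gene (BraA09g021380.3C) switched between class j isoforms. That of 2659 nt held 97.9% in Ant and 9.45% in Mix, and that of 2070 nt was listed at 0 in Ant and held 88.2% in Mix. The plant intracellular Ras-group-related LRR protein 4-like gene (BraA01g002960.3C) had its class j isoform at 98.8% in Ant and 5.96% in Mix. The vacuolar cation/proton exchanger 1 (BraA04g027070.3C), which loads calcium into the vacuole, had a class j isoform of 2862 nt at FPKM 45.0 in Ant and 0.0808 in Mix, which ended 2321 nt downstream of the reference and overlapped another gene. Nucleobase-ascorbate transporter 6 (BraA06g026500.3C) had its class j isoform at 99.0% in Ant and 12.6% in Mix. Peroxidase C3-like (BraA04g027200.3C), a secreted oxidant enzyme, had a reference listed at 0 in Ant and at 103 in Mix, and a class j isoform at 5.91 in Ant and 4.56 in Mix. In that gene the class j isoform differed less in level between the libraries than the reference did.

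The remaining genes of the 24 had little or no named function, apart from the 40S ribosomal protein S5-1-like gene described below. BraA09g066480.3C was the most abundant of the 373 in Ant, with a summed FPKM of 760 in Ant and 57.1 in Mix, and its class j isoform held 96.2% in Ant and 5.15% in Mix. In BraA01g002300.3C the class j isoform had 56.6 in Ant and 0.0148 in Mix and the reference had 0.0508 in Ant and 5.63 in Mix. The isoforms of BraA09g047400.3C, BraA01g033110.3C, BraA01g036560.3C, BraA09g050240.3C and BraA10g005950.3C were split less sharply, at switch sizes from 87.5 to 97.5 points. Their Ant-dominant isoforms held between 93.1 and 100% in Ant and at most 12.5% in Mix. In BraA01g036560.3C the isoforms did not overlap. In all, 94 of the 373 genes had no named function.

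The 373 genes were also read through 15 functional lists drawn from the descriptions and annotation terms. They took in 198 of the genes and 175 were in none, and a gene can be in several. The lists match patterns of words and miss some genes that are described here by the same role. For example, calreticulin-1 is not among the chaperones, and the vacuolar cation/proton exchanger 1 is not in membrane transport. Each share is thus that of the matched genes and not of the whole function. No list is independent evidence, since the genes and lists were chosen with earlier results known, and the intervals over genes treat them as independent draws. Against 16.3% of all eligible genes, the share that switched ran between 8.75% (kinases and phosphatases, 14 of 160, interval 5.28 to 14.2%) and 23.7% (transcription factors and chromatin, 18 of 76, interval 15.5 to 34.4%) in the lists with over 30 eligible genes. The chloroplast list held 87 of 516 (16.9%) and the mitochondrion list 54 of 310 (17.4%), both near the share of all eligible genes.

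**Figure D5:**
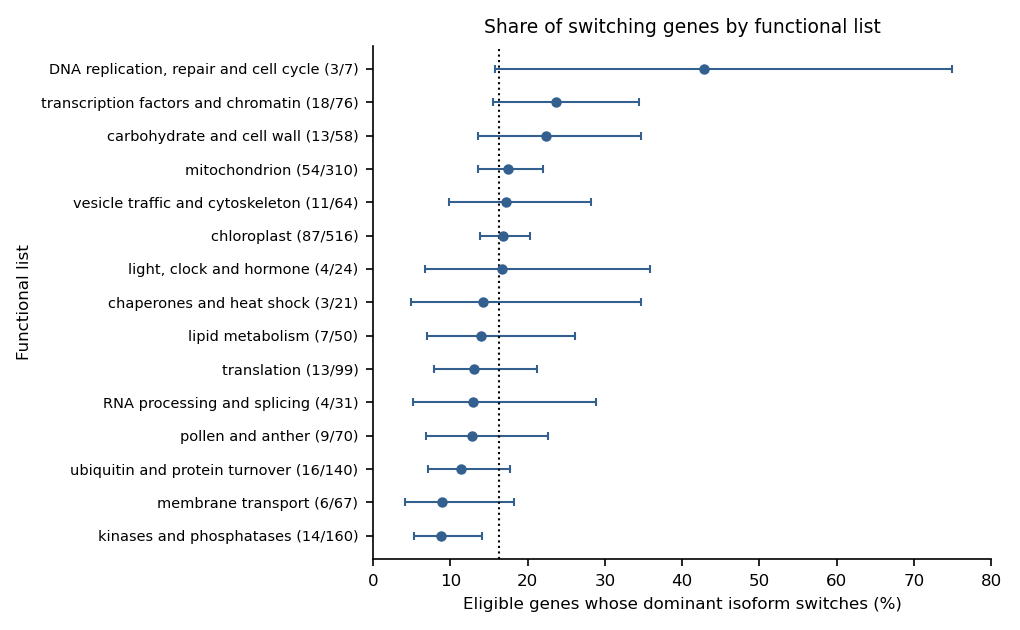
Share of eligible genes whose dominant isoform switches (%, x axis) in 15 functional lists, with the members and eligible genes in brackets. Points are the shares, bars are 95% Wilson intervals over genes, and the dotted line is the 16.3% of all eligible genes.

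Among the 18 genes of transcription factors and chromatin, a class j isoform led in Ant in 13 and the reference led in Ant in 5, with a median switch size of 52.2 points against 53.2 over all 373. Zinc finger CCCH domain-containing protein 46 (BraA09g043160.3C) had its class j isoform at 90.2% in Ant and 5.68% in Mix. In bHLH92-like (BraA09g019940.3C) and DIVARICATA-like (BraA02g002770.3C), both transcription factors by description, the reference held 98.3% and 100% in Ant and 18.8% and 20.8% in Mix. The class j isoform of DIVARICATA-like overlapped another gene. Of the 31 eligible genes of RNA processing and splicing, 4 switched (12.9%). SR45a-like (BraA01g002760.3C), a serine/arginine-rich protein, had its reference at 58.2% in Ant and 16.5% in Mix and a class j isoform with 1 more exon at 20.1% in Ant and 77.6% in Mix. RS40 (BraA08g020050.3C), another serine/arginine-rich splicing factor, switched between a class j isoform of 288 nt with 2 exons, at 66.3% in Ant and 26.0% in Mix, and one of 1261 nt with 5 exons, at 32.5% in Ant and 69.6% in Mix. The others were a plasminogen activator inhibitor 1 RNA-binding protein-like gene (BraA03g047560.3C, class j isoform 94.4% in Ant and 16.1% in Mix) and the mitochondrial glycine-rich RNA-binding protein 2 (BraA08g006150.3C, class j isoform 71.7% in Ant and listed at 0 in Mix).

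Kinases and phosphatases numbered 14 of 160, with a median switch size of 65.1 points, and the Ant-dominant isoform was longer in 13. The list matched the word kinase, so that the metabolic phosphoglycerate kinase stood in it. IREH1 (BraA05g029700.3C) switched between class j isoforms, the Ant-dominant one at 74.9% in Ant and listed at 0 in Mix. Ubiquitin and protein turnover gave 16 of 140 (11.4%), of which 13 had the class j isoform in Ant. Proteasome subunit beta type-5-B (BraA08g030630.3C), part of the catalytic core, had its class j isoform at 80.4% in Ant and 12.7% in Mix, and U-box domain-containing protein 13-like (BraA06g020360.3C), a ubiquitin ligase, at 79.1% in Ant and 12.6% in Mix. Protease Do-like 7 (BraA05g041880.3C) had an Ant-dominant isoform of 11 exons, at 73.7% in Ant and 6.93% in Mix, against a reference of 24 exons. The inactive protease FTSHI 1 (BraA01g014660.3C) had its class j isoform at 59.6% in Ant and 3.80% in Mix, with a whole other gene in its span.

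Membrane transport gave 6 of 67 (8.96%). Plastidic glucose transporter 4-like (BraA03g007320.3C), which exports glucose from plastids, had its class j isoform at 99.9% in Ant and 17.7% in Mix. Cyclic nucleotide-gated ion channel 2 (BraA10g024010.3C) and ABC transporter D family member 2 (BraA01g020560.3C) had identical ends in both isoforms and 1 exon fewer in the longer one, which held 62.8% and 70.4% in Ant and 5.30% and 15.3% in Mix. Vesicle traffic and cytoskeleton gave 11 of 64 (17.2%). Tubulin alpha-3 (BraA03g009230.3C), a subunit of microtubules, had its class j isoform at 92.5% in Ant and 7.08% in Mix. SNARE-interacting protein KEULE (BraA09g060790.3C), which acts in membrane fusion at the cell plate, had its class j isoform at 85.7% in Ant and 18.7% in Mix. Vesicle-associated protein 2-1-like (BraA06g041270.3C) had its reference at 76.6% in Ant and 9.36% in Mix, and its class j isoform held a whole other gene.

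Translation gave 13 of 99 (13.1%), 7 with the class j isoform in Ant and 5 with the reference in Ant. The 40S ribosomal protein S5-1-like genes BraA05g008210.3C and BraA03g035040.3C had class j isoforms at 96.4% and 88.8% in Ant and 8.65% and 22.7% in Mix. Ribosomal protein S15a (BraA06g004980.3C) had its class j isoform at 98.3% in Ant and 22.8% in Mix, and mitochondrial L41-A (BraA09g029510.3C) at 96.1% in Ant and 36.5% in Mix. Chaperones and heat shock gave 3 of 21. Heat shock protein 90-5 (BraA06g038950.3C), a chloroplast chaperone, had its reference at 100% in Ant and 26.5% in Mix, where its class j isoform overlapped another gene. Chaperone dnaJ 8 (BraA07g042640.3C) had isoforms of 479 and 489 nt with 3 exons each and identical ends, and the shorter held 55.1% in Ant and 0.844% in Mix. BAG family regulator 1 (BraA03g015150.3C) had its reference at 77.4% in Ant and 28.8% in Mix.

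Carbohydrate and cell wall genes gave 13 of 58 (22.4%, interval 13.6 to 34.7%), and here the reference led in Ant in 7 and a class j isoform in 4, with class j isoforms in both in 2. Cellulose synthase-like protein D3 (BraA01g043890.3C), a wall glucan synthase that acts in root hair growth in Arabidopsis, had an FPKM of 15.2 in Ant and 0.174 in Mix for its reference, with a class j isoform at 4.48 in Ant and 6.32 in Mix. Sucrose-phosphate synthase 4 (BraA02g028970.3C), which makes sucrose, switched between class j isoforms of 4465 nt, at 114 in Ant and 3.15 in Mix, and 3377 nt, at 6.09 in Ant and 10.6 in Mix. The oligosaccharyltransferase subunit 2 (BraA01g011920.3C), which attaches glycans to proteins, had its class j isoform at 93.6% in Ant and 9.13% in Mix, and it overlapped another gene. Starch branching enzyme 2-2 (BraA10g032560.3C) had its class j isoform at 55.3% in Ant and 3.83% in Mix, with a whole other gene in its span.

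Lipid metabolism gave 7 of 50 (14.0%), 5 with the class j isoform in Ant. Acyl-activating enzyme 17 (BraA03g043710.3C) had its class j isoform at 99.8% in Ant and 13.5% in Mix, again with a whole other gene in its span. The chloroplast 3-oxoacyl-[acyl-carrier-protein] synthase III (BraA09g015720.3C), which starts fatty acid synthesis, had it at 94.8% in Ant and 9.51% in Mix, the fatty acyl 2-hydroxylase FAH2 (BraA01g011640.3C) at 97.4% in Ant and 18.1% in Mix, and a delta-9 acyl-lipid desaturase 2-like gene (BraA03g016670.3C) at 81.7% in Ant and 10.2% in Mix. Light, clock and hormone genes gave 4 of 24, all with the class j isoform in Ant. The auxin response factors 2 (BraA06g025480.3C) and 1 (BraA01g027750.3C), which bind auxin-responsive promoters, had it at 71.2% and 61.2% in Ant and 13.6% and 25.9% in Mix. CONSTANS-LIKE 13 (BraA05g000150.3C) had it at 75.7% in Ant and 47.7% in Mix, and an abscisic acid 8'-hydroxylase 3-like gene (BraA06g042600.3C), for a step in the breakdown of abscisic acid, at 51.8% in Ant and 29.2% in Mix. DNA replication, repair and cell cycle gave 3 of 7, the kinase F-4-like gene above, the ubiquitin receptor RAD23d (BraA04g011090.3C, class j isoform 59.0% in Ant and 15.4% in Mix) and a cell division control protein 48 homolog A-like gene (BraA03g033720.3C, 53.2% in Ant and 43.1% in Mix).

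Of 70 eligible genes with an annotation term for pollen or anther, 9 switched (12.9%). Fatty acyl-CoA reductase 3 (BraA01g004350.3C), a wax enzyme, had a class j isoform of 1060 nt at 90.7% in Ant and 26.3% in Mix and another of 1721 nt at 8.68% in Ant and 71.4% in Mix, which did not overlap the first. BraA01g043210.3C, with no named function, had its class j isoform at 61.4% in Ant and listed at 0 in Mix. EXPORTIN 1A (BraA02g006780.3C), which carries proteins out of the nucleus and is needed for gametophytes in Arabidopsis, had its class j isoform of 30 exons at 86.2% in Ant and 37.4% in Mix, against a reference of 32 exons.

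Brassica rapa carries several copies of many genes, and 19 of the 373 genes shared a description with another of them, under 9 descriptions. In 7 descriptions all these copies switched in the same arrangement. This was mostly class j in Ant and the reference in Mix, the arrangement of 63.5% of all 373 genes. Whether copies agreed more often than other genes was not tested. Besides pyruvate dehydrogenase and S5-1, calreticulin-1, a calcium-binding chaperone, had class j isoforms at 63.4% (BraA01g026180.3C) and 78.0% (BraA09g018690.3C) in Ant and at 35.2% and 46.7% in Mix, each with 11 exons against 12. Another CTP synthase (BraA05g034420.3C) had its class j isoform at 96.9% in Ant and 48.9% in Mix. VPS32 homolog 2, a subunit that cuts membranes of multivesicular bodies, had its reference at 81.9% (BraA03g054930.3C) and 52.6% (BraA01g008420.3C) in Ant, and at 45.3% in Mix in the second, while 2 estimated counts in Mix allow up to 0.486% in the first. The coat protein SEC23 and the ubiquitin ligase RHY1A made up the other pairs. The arrangement differed in the ribosomal protein L18a-2, in 3 copies, of which BraA05g032480.3C had dominant isoforms that did not overlap, and in the succinyltransferase of 2-oxoglutarate dehydrogenase, where the class j isoform led in Ant in BraA03g013590.3C (99.1% in Ant and 39.0% in Mix) and the reference in BraA02g013550.3C (65.1% in Ant and 41.0% in Mix). Reads of near-identical copies can be split between them, so these values are uncertain. Counting other eligible genes, 23 carried these 9 descriptions, and the 4 that were not among the 373 had the same leading isoform in both libraries.

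The levels of the whole genes were set beside the switches. The summed FPKM had a median of 17.1 in Ant and 9.96 in Mix, against 18.6 in Ant and 11.0 in Mix over all eligible genes. On the scale log2((FPKM Ant + 1)/(FPKM Mix + 1)), which understates the change of low genes, the median was 0.62 for the 373 genes and 0.60 for the eligible genes. With totals without the A06 window both were below 0, at -0.20 for the 373 and -0.21 for the eligible genes, so no direction is given for the group. Values above 1 were found in 131 of the 373 genes (35.1%, against 36% of the eligible genes) and below -1 in 30 (8.04%, against 9.24%), and 212 lay within 1. With totals without the window these counts were 59 above 1 (15.8%, against 15.3%) and 97 below -1 (26.0%, against 24.2%). In both scalings the 373 genes lay close to the eligible genes. The Ant-dominant isoform had the higher FPKM in Ant in 352 genes and the Mix-dominant isoform had the higher FPKM in Mix in 286, and both held in 265. With totals without the window they were 310, 333 and 270.

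Other features were compared with the 1922 eligible genes that were not chosen. Of the eligible genes with 2 isoforms 14.7% switched, of those with 3 isoforms 25.1%, and of those with more 14.4%. Reference length had a median of 1305 nt in the 373 genes and 1230 nt in the others, and reference exon number a median of 6 in both. By chromosome, the share that switched ran between 13.2% on A07 and A10 and 21.0% on A09. The span of a dominant isoform overlapped another reference gene in 33 of the 373 genes (8.85%, interval 6.37 to 12.2%) and in 92 of the others (4.79%, interval 3.92 to 5.83%). It held a whole other gene in 21 of the 373, in the Ant-dominant isoform only in 11, in the Mix-dominant isoform only in 7 and in both in 3. The 373 genes have 2 dominant isoforms each and most of the others have 1, so they have more spans that can overlap. The widest case was the L18a-2-like gene BraA03g018090.3C, whose Mix-dominant isoform began 44927 nt upstream and held 6 other genes.

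Circular RNAs were a further readout that the rule did not use. A circRNA, a loop made by back-splicing a later exon to an earlier one, came from 7 of the 373 genes (1.88%) and from 30 of the others (1.56%). They rested on few junction reads. The chloroplast ascorbate peroxidase T (BraA07g040850.3C), which removes hydrogen peroxide, had 5 reads in Ant and 0 in Mix. RS40 and the ubiquitin ligase RGLG2 (BraA07g033100.3C) each had 3 reads in Ant and 0 in Mix. The 3-isopropylmalate dehydratase large subunit (BraA04g008640.3C), of leucine synthesis, had 2 circRNAs with 2 reads in Ant and 2 in Mix. EXPORTIN 1A and BraA08g023330.3C had 0 in Ant and 2 in Mix, and BraA05g029060.3C had 0 in Ant and 3 in Mix. With 1 library a group and so few reads, no difference could be tested. In their linear RNA, ascorbate peroxidase T had a class j isoform at 81.7% in Ant and 31.6% in Mix, RGLG2 a class j isoform at 51.6% in Ant and 5.07% in Mix, and the dehydratase a reference of 1527 nt at 73.9% in Ant and 30.3% in Mix beside a class j isoform of 1533 nt with the same ends and exon number. BraA08g023330.3C and BraA05g029060.3C, without a named function, had class j isoforms at 78.3% and 69.9% in Ant and 13.5% and 38.9% in Mix.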

How the data were processed

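The 2 whole-transcriptome libraries, 1 of anthers (Ant) and 1 of root, stem and leaf (Mix), were used. By the methods of the study, the authors trimmed the reads with Cutadapt, used Bowtie2 and TopHat2 (the sample labels also name HISAT2) for mapping to genome v3.0 of Brassica rapa and assembled transcripts with StringTie. The deposited FPKM values may come from StringTie and Ballgown or from Cuffdiff, as the study names both. The estimated counts, deposited as whole numbers, followed the product of FPKM and length and summed to 216371346 in Ant and 190816341 in Mix. The kit was stranded, but the strand setting of the counting was not stated, so overlapping and antisense genes are uncertain. The deposited counts of back-spliced junction reads gave the circRNAs, and the deposited SRPBM signal was not needed.

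Isoforms of class = and j were grouped by gene name in Python 3.11.15 with pandas 2.3.3 and scipy 1.17.1, and the search was tested on simulated data. A transcript listed at 0, or the few printed under 6 estimated counts, was given a limit of 6 estimated counts. As the estimated counts exceed the reads, these limits may be too low. Shares over genes have 95% Wilson intervals and medians have 95% order-statistic intervals, which cover counting over genes only and hold no variation between plants. Gene ratios had 1 added to FPKM. Ends within 50 nt were called equal. Genes were named by rule: the 24 largest switch sizes among genes with at least 30 estimated counts for each dominant isoform, up to 4 per list, those nearest the thresholds, circRNA hosts and the extremes of length. Other genes named, among them those with identical ends, the copies and the least shift, were chosen after their values were seen. The members and lists were chosen with earlier results of these data known, and the patterns of 4 of the 15 lists were narrowed after wrong matches were seen. The alternatives tried were other minimum shares and FPKM, all class codes, grouping by the assembler's gene, shares of estimated counts, leaving out overlapping genes, other end tolerances, pseudocounts and scalings, and, added after the data were seen, leaving out genes whose dominant isoforms do not overlap.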

Additional observations from a re-analysis of the deposited data

How the results depend on the processing

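No paired analysis was possible because each group held 1 library, and no test was made, so alternatives are set against the values alone. The number of genes, 373, was 224 with a minimum share of 60%, 87 with 75%, 1032 with a summed FPKM of at least 1, 149 with at least 10, 48 with at least 20 and 1556 with no minimum. It stayed within 1.5 times at 441 without a minimum share, 392 with all class codes (368 of the 373 among them), 396 when grouped by the assembler's gene (352 among them), 377 when shares were taken of estimated counts (317 among them), 340 without genes that overlap another gene, 365 without the 8 genes whose dominant isoforms do not overlap each other (chosen after seeing the data), and 373 with at least 30 estimated counts. The share of reference-to-j switches with class j in Ant, 72.3%, was 77.7% at 60% and 84.2% at 75%. The share with the longer isoform in Ant, 68.9%, was 74.1% at 60%, 80.5% at 75%, 58.1% with no minimum FPKM 51.1% where both dominant isoforms were of class j and 45.9% where these also overlapped. The share with both ends equal, 14.2%, was 6.90% at 75%, 22.9% at an FPKM of at least 20, 19.2% with no minimum FPKM, 37.8% where both were of class j, 45.9% where these also overlapped, 11.0% with a tolerance of 0 nt and 27.3% with 200 nt. For summed FPKM, the median of the log2 ratios over the genes, 0.62, was 0.82 at an FPKM of at least 1, 0.38 at 10, 0.17 at 20, 1.20 with no minimum, 0.024 when centred on the median eligible gene, and -0.20 with library totals without the A06 window, which turned its sign by construction, since that scaling shifts every ratio by -0.87 before 1 is added. Of the 24 named switch sizes, 19 moved by more than a counting interval when taken on estimated counts, and all 24 genes stayed in. Estimated counts weigh isoforms by length, and a counting interval does not measure the effect of such weights. The size went from 90.9 to 85.1 points in BraA04g027070.3C and from 97.8 to 98.5 points in BraA06g023250.3C, both among the 19. Of the 24, 22 stayed when grouped by the assembler's gene, 22 without genes that overlap another gene, 23 without those whose dominant isoforms do not overlap, 14 at a summed FPKM of at least 10 and 3 at 20, and all 24 under the other alternatives for the choice of genes.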

Other observations

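The following 3 genes, known for roles in the circadian clock, were in none of the lists and were picked after their values were seen, so they are single examples and not a group. The list of light, clock and hormone genes gave 4 of 24 (16.7%), beside 16.3% of all eligible genes. That list also lacks AUXIN SIGNALING F-BOX 2 and ARR1, so its share is not the rate of clock or hormone genes. EARLY FLOWERING 3 (BraA09g052890.3C), an evening repressor of the clock in Arabidopsis, had a class j isoform at 69.3% in Ant and 11.6% in Mix and its reference at 30.7% in Ant and 68.8% in Mix. REVEILLE 6 (BraA03g014850.3C), a MYB-like clock activator, switched between class j isoforms of 1182 and 1189 nt with 8 exons each: the shorter had an FPKM of 12.6 in Ant and was listed at 0 in Mix, and the longer had 2.29 in Ant and 5.61 in Mix. TIME FOR COFFEE (BraA04g000240.3C), a clock regulator of Arabidopsis, had a class j isoform of 2222 nt at 99.8% in Ant and 16.1% in Mix, and another of 3287 nt listed at 0 in Ant and at 83.6% in Mix.

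Of the photosynthesis genes, the photosystem II 22 kDa protein (BraA10g007760.3C), which lets excess light energy be lost as heat, was also a member. Its reference had an FPKM of 7.09 in Ant and 9.36 in Mix, and a class j isoform that ended 1159 nt further downstream had 0.0251 in Ant and 49.8 in Mix.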
